A study of Mus musculus with 13 samples.

Results

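The AP-1 transcription factor genes are the Fos, Jun and Atf3 genes measured in 13 mouse hearts. The 8 members (Fos, Fosb, Fosl1, Fosl2, Jun, Junb, Jund and Atf3) were matched by symbol among 24061 gene symbols, and all 8 had a row in every library. They were chosen by measured values as well as by name: an earlier reading of the E3A/E3A against WT/WT comparison had shown values of Jund and Atf3. Values of that comparison, calls included, are therefore given as a description, and no member's p-value in it is printed. The comparisons with WT/E3A share hearts with it and are not independent of that choice.

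Each library held poly(A) RNA from 1 heart of a male C57BL/6N mouse aged 13 weeks and fed chow. E3A is an allele of Cpt1b, the gene of the muscle enzyme that starts the entry of long-chain fatty acids into mitochondria, and it lowers the sensitivity of that enzyme to its inhibitor malonyl-CoA. The groups were WT/WT (4 hearts, no E3A allele), WT/E3A (4 hearts, heterozygous) and E3A/E3A (5 hearts, homozygous), and all of them shared strain, sex, age and diet. Counts per gene cannot show a single changed codon, so they did not check the genotype labels. No source used here says how the allele was made.

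AP-1 is a dimer of basic leucine zipper proteins. Fos proteins bind DNA only with a partner such as a Jun protein, Jun proteins can also pair with each other, and ATF3 pairs with Jun proteins and with itself. Fos, Fosb and Junb are among the immediate early genes, whose mRNA rises briefly after growth factors, stretch, calcium or stress and then decays. In the heart they respond to acute load and also to tissue handling. JUND is present at rest, and ATF3 is a stress-induced factor of the ATF/CREB branch.

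The labels note 4 libraries as potential outlier: E3A/E3A replicates 1 and 2 and the first replicate of each of WT/WT and WT/E3A. The depth of the 13 libraries ran from 20.1 M to 52.6 M counted reads. In the 9 libraries without the note, the summed level of 10 cardiomyocyte markers lay between 87650 and 97790 CPM (counts of a gene relative to the scaled total of its library), and in the 4 noted libraries it lay between 139500 and 204700 CPM. The 8 fibroblast markers summed to between 1209 and 1407 CPM in the 9 and to between 1858 and 4377 CPM in the 4. Their member Dcn went the other way, with a log2 ratio of noted over other libraries of -1.19. The 8 macrophage markers summed to between 207 and 264 CPM in the 9 and to between 282 and 328 CPM in the 4. Other types overlapped between the 9 and the 4. Smooth muscle and pericyte markers summed to 598 to 681 CPM in the 9 and 627 to 670 CPM in the 4. Endothelial markers summed to 1398 to 1717 CPM and 1540 to 1863 CPM, and skeletal muscle markers to 1189 to 1335 CPM and 979 to 1220 CPM. All 10 cardiomyocyte markers had reads in every group, as the tissue label implies, and 4 of 5 red blood cell markers, the hemoglobin genes, were listed at 0. The genotype comparisons of the members are therefore given for the 13 libraries and for the 9 without the note, and each other result names the libraries it rests on. In bulk tissue, fewer cells of a type and less RNA per cell cannot be told apart.

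Jund, Jun and Junb each consist of 1 exon in GENCODE M21 on GRCm38. Jund lies at chr8:70698949-70700616 on the plus strand, Junb at chr8:84974484-84978718 and Jun at chr4:95049034-95052222, both on the minus strand. The other members have 4 exons each: Fos at chr12:85473890-85477273 (plus), Fosb at chr7:19302696-19310051 (minus), Fosl1 at chr19:5447547-5455946 (plus), Fosl2 at chr5:32135801-32157842 (plus) and Atf3 at chr1:191170296-191218039 (minus). Gm11175 overlaps Jund and Junos overlaps Jun on the opposite strand, and neither had a row of its own. Prdx2, at 232.5 to 386.9 CPM, overlaps Junb, and Ccdc85b, at 22.9 to 185.2 CPM, overlaps Fosl1, both on the opposite strand. Gm24748, which had no row, overlaps Atf3 on the opposite strand. Reads of such pairs cannot be told apart, because no source used here gives the strand setting of the counting.

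The promoter windows of Fos, Fosb and Junb are shown because these genes varied together from heart to heart, and that of Jun because it did not vary with them. Each window holds the 250 bases before the RefSeq start on GRCm38.p6, in the gene's own direction. Capitals mark TGACG, the core of the cAMP response element, in the first 3 windows and TGACATCA, the Jun-type site, in the window of Jun. The windows lie at chr12:85473640-85473889 (Fos), chr7:19310046-19310295 (Fosb), chr8:84978749-84978998 (Junb) and chr4:95052223-95052472 (Jun).
Fos: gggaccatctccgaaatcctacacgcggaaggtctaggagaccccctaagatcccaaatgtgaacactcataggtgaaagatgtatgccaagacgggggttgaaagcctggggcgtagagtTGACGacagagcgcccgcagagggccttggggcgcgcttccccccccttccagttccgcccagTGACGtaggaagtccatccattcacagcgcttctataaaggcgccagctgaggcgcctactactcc
Fosb: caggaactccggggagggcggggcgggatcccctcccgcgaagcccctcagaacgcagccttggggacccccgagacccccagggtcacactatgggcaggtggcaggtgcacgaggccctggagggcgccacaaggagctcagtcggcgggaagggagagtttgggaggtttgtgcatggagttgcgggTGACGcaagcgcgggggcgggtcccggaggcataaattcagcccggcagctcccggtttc
Junb: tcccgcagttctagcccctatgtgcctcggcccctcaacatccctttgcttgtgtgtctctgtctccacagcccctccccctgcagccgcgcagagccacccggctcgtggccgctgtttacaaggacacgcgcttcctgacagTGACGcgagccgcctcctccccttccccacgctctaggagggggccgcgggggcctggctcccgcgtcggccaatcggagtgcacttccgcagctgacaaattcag
Jun: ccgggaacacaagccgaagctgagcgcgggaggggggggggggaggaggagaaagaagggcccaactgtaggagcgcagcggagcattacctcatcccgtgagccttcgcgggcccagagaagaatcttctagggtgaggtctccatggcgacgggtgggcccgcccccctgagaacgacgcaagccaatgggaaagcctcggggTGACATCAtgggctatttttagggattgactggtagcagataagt

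RefSeq windows were at hand for 7 of the 8 members, all but Fosl1. TGACG stood 129 and 66 bases before the start of Fos, 60 before that of Fosb and 106 before that of Junb. Atf3 had the same letters on its minus strand, 7 bases before its start. TGACATCA stood 45 bases before the start of Jun. Of 32851 promoter windows of the same length, 17.8% held TGACG on either strand and 2.93% held TGACATCA. The AP-1 site TGANTCA (6.75% of all windows), the full element TGACGTCA (1.55%, which itself contains TGACG) and the CArG box (1.47%) were found in none of the 7 windows. No searched motif was in the windows of Fosl2 and Jund. The Jund window, chr8:70697489-70697738, stops well short of the GENCODE start of that gene at 70698949. Its GC content was 47.6%, against 58.4% to 68.8% for the other windows. The lack of a motif there says nothing of the bases just before that GENCODE start. The windows of Atf3 (chr1:191183334-191183583) and Fosl2 (chr5:32136222-32136471) lie inside the GENCODE spans of those genes. Their motif results hold for the RefSeq starts used here and not for the GENCODE starts. These are letter matches in a short window and say nothing of binding.

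Jund was the most abundant AP-1 mRNA of these hearts per length. Over the 9 libraries without the note its mean level was 83.8 CPM per kilobase of transcript (range 69.3 to 101.1). Jun followed at 29.3 CPM per kilobase (24.9 to 34.9), below Jund in all 9 hearts. Junb (15.6, range 9.37 to 25.3) and Fosl2 (14.1, range 8.86 to 21.9) had overlapping ranges. Junb was above Fosl2 in E3A/E3A replicate 3 and WT/WT replicate 3 and below it in the rest of the 9 hearts. Fos (9.59, range 2.52 to 22.1) and Atf3 (8.84, range 4.70 to 13.9) also overlapped, and their order changed from heart to heart. Fosb lay at 0.76 CPM per kilobase (0.228 to 1.71).

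Jund supplied between 58.5% and 68.7% of the summed CPM per kilobase of the 3 Jun genes in the 9 hearts, Jun between 18.2% and 29.5% and Junb between 7.76% and 18.5%. The makeup of the Fos genes moved more. Fosl2, which encodes FRA2, made up from 27.1% to 82.9% of their summed level, and Fos from 15.5% to 67.6%.

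Fosl1, which encodes FRA1, was near the limit of the counting. It had 25 reads in all, at most 8 in 1 library, and was at 0 in 3 libraries, where a count of 0 allows up to 0.0878 to 0.141 CPM. It did not pass the filter on low counts, so 7 of the 8 members were tested.

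**Figure D1:**
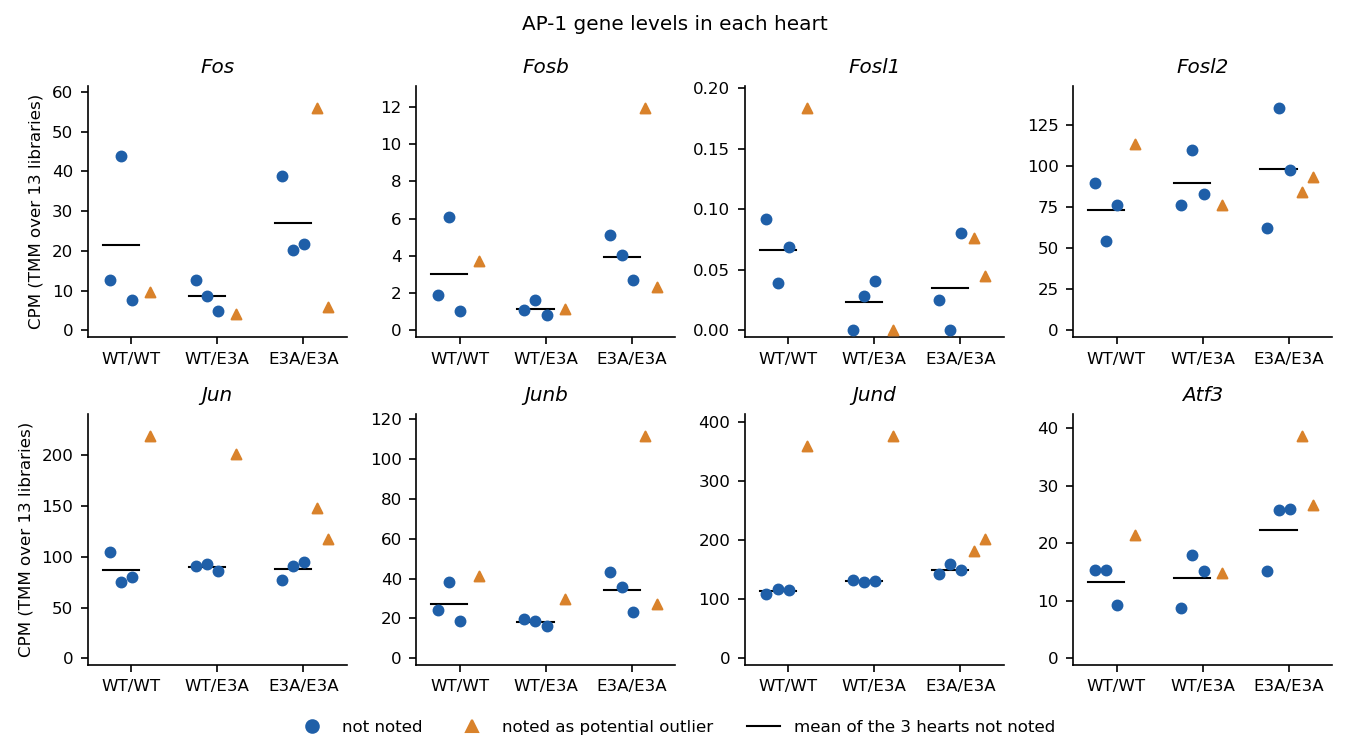
Level of each AP-1 gene in every heart, in CPM scaled over 13 libraries on a linear axis, by genotype. Circles are hearts without the potential outlier note, triangles are noted hearts and lines are means of the 3 hearts without the note in a group. The triangles of Jund and Jun lie above all circles, while those of Fos lie on both sides of the circles.

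Among the Fos genes, Fos itself is the prototype immediate early gene. In CPM scaled over the 13 libraries, Fos was at 9.64, 12.6, 43.99 and 7.76 in WT/WT replicates 1 to 4. It was at 4.03, 12.7, 8.65 and 5.00 in WT/E3A replicates 1 to 4, and at 55.9, 5.89, 38.9, 20.3 and 21.7 in E3A/E3A replicates 1 to 5. WT/WT replicate 3 and E3A/E3A replicates 1 and 3 were high, no WT/E3A heart was above 12.7, and the E3A/E3A range covered that of WT/WT.

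Fosb, which encodes a closely related Fos protein, was at 3.71, 1.88, 6.10 and 1.05 CPM in the WT/WT hearts, in the same order. It was at 1.14, 1.08, 1.61 and 0.814 CPM in WT/E3A and at 11.9, 2.32, 5.11, 4.04 and 2.70 CPM in E3A/E3A. The same hearts as for Fos stood highest, and all 5 E3A/E3A hearts lay above all 4 WT/E3A hearts.

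Fosl2 was steadier. Its CPM was 113, 89.4, 54.6 and 75.9 in WT/WT, 76.1, 76.3, 109.5 and 82.8 in WT/E3A, and 83.9, 93.5, 62.5, 135 and 97.6 in E3A/E3A. The 3 groups overlapped, and WT/WT replicate 3, the WT/WT heart highest in Fos, was the lowest of all in Fosl2.

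Junb, an immediate early gene, was at 41.4, 24.3, 38.6 and 18.7 CPM in WT/WT. It was at 29.6, 19.9, 18.8 and 15.99 CPM in WT/E3A and at 111.7, 27.1, 43.2, 35.9 and 23.5 CPM in E3A/E3A. The noted E3A/E3A replicate 1, highest also in Fos and Fosb, stood far above all other hearts.

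Jun, the founding Jun gene, was at 219, 105, 74.9 and 80.3 CPM in WT/WT, 201.1, 90.8, 93.2 and 85.6 CPM in WT/E3A, and 148, 117, 77.5, 91.1 and 95.2 CPM in E3A/E3A. The 4 highest hearts were the 4 noted ones, whatever their genotype.

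Jund was at 360.8, 108.9, 117.4 and 116.3 CPM in WT/WT, 377.1, 132.5, 130.0 and 130.5 CPM in WT/E3A, and 182.7, 202.5, 142.1, 159.1 and 148.9 CPM in E3A/E3A. The noted hearts were again the 4 highest. Among the other 9 the genotypes formed 3 bands that did not overlap, with WT/WT lowest and E3A/E3A highest. Of all genes, 7.2% had E3A/E3A above WT/WT without overlap, 6.35% WT/E3A above WT/WT and 5.82% E3A/E3A above WT/E3A. The share with all 3 bands in this order was not computed. Nothing is read from the order, since E3A/E3A against WT/WT values of Jund were known when the genes were chosen.

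Atf3 was at 21.4, 15.4, 15.3 and 9.32 CPM in WT/WT. It was at 14.8, 8.81, 17.9 and 15.2 CPM in WT/E3A and at 38.6, 26.6, 15.3, 25.7 and 25.9 CPM in E3A/E3A. Of the E3A/E3A hearts, 4 of 5 lay above every heart of the other genotypes, and replicate 3 lay among them.

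In E3A/E3A against WT/WT, the comparison behind the choice of members, 0 of 7 tested members were called over 13 libraries and 1 of 7, Jund, over 9. Calls needed an adjusted p below 0.05 by the edgeR quasi-likelihood test, adjusted over all genes, and they made up 0.00695% of 14387 genes tested over 13 libraries and 0.271% of 14373 over 9. At an unadjusted p under 0.05, 1 member, Atf3, was higher over 13 libraries, against 0.584% of all genes, and neither DESeq2 nor limma-voom with quality weights called a member there. Nothing is read from these counts, since that contrast was used in choosing the genes.

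The member median in this comparison was a log2 fold change of 0.63 over 13 libraries (5 above 0 and 2 below; all genes, -0.02) and 0.39 over 9 (7 above 0; all genes, 0.00). Atf3 had a log2 fold change of 0.78 (SE 0.29) over 13 libraries and 0.74 (SE 0.35) over 9. Fosb had 0.74 (SE 0.54) and 0.52 (SE 0.64), Junb 0.65 (SE 0.44) and 0.36 (SE 0.32), and Fos 0.63 (SE 0.65) and 0.39 (SE 0.70), in the same order of fits. Single hearts moved these values. Over 9 libraries Fos and Fosb were at 1.41 and 1.45 without WT/WT replicate 3 and at -0.03 and 0.07 without WT/WT replicate 4, and Fos was at 0.02 without E3A/E3A replicate 3. Over 13 libraries Junb was at 0.08, Fosb at 0.18 and Fos at 0.24 without E3A/E3A replicate 1, and Fos was at 1.51 without WT/WT replicate 3. Fosl2 had 0.18 (SE 0.24) and 0.42 (SE 0.33), and Jun -0.18 (SE 0.36) and 0.02 (SE 0.13). With the title prefix (described with Jund) as a block over 9 libraries, Fos moved to 1.31, Fosl2 to -0.09 and Jun to -0.27.

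Jund depended on the noted libraries. Scaled over the 9 libraries, its level was 115.6, 124.6 and 123.2 CPM in WT/WT (mean 121.1, SD 4.81, n = 3), then 140.2, 138.2 and 138.3 CPM for heterozygotes (mean 138.9, SD 1.16, n = 3). In E3A/E3A it was 150.6, 168.6 and 158.3 CPM (mean 159.2, SD 9.03, n = 3). E3A/E3A did not overlap WT/WT, as was the case, in the higher direction, for 7.2% of all genes. The log2 fold change was 0.39 (SE 0.05) over 9 libraries and -0.07 (SE 0.42) over 13. Without WT/WT replicate 1 alone, the 13-library value turned to 0.55.

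Titles of the samples begin with C2, C3, C4 or C6, and what this prefix stands for is not given in the sources used here. C6 holds WT/WT replicates 3 and 4 alone, C4 holds no WT/WT heart and C2 no WT/E3A heart. Genotype and prefix therefore cannot be told apart for the C6 hearts. With the prefix as a block over the 9 libraries, Jund had a log2 fold change of 0.44 and was no longer called, in a fit where WT/WT rests on 1 heart. Within C3, where no library is noted, 2 E3A/E3A hearts against 1 WT/WT heart differed by 0.42, and within C2, where all 3 are noted, by -0.91. In the 9 libraries the fibroblast markers summed to 1209 to 1232 CPM in WT/WT and 1251 to 1407 CPM in E3A/E3A. In WT/E3A they summed to 1228 to 1368 CPM, overlapping both other groups. Between E3A/E3A and WT/WT 8 of 8 were above 0, with a median log2 difference of 0.12. That median was 0.18 for smooth muscle and pericyte (5 above 0, 2 below), 0.14 for macrophage (7 above, 1 below) and 1.03 for epicardial markers (5 above, 0 below). The part of any of these markers in the Jund difference was not tested.

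In WT/E3A against WT/WT, 0 of 7 members were called by edgeR, DESeq2 or limma-voom in either fit, beside 0.0% of all genes over 13 libraries and 0.0209% over 9 in edgeR. Fos had a log2 fold change of -1.28 and Fosb of -1.42 over 13 libraries (edgeR adjusted p = 1 for each), with -1.25 (SE 0.77) and -1.21 over 9. Fosb alone had an unadjusted p under 0.05 over 13 libraries, lower in WT/E3A, against 0.487% of all genes in that direction. Junb had -0.54 and -0.56. Leaving out WT/WT replicate 3 brought Fos to -0.23, Fosb to -0.28 and Junb to -0.24 over 9 libraries. Over 13 libraries the same omission left Fos at -0.40, Fosb at -0.92 and Junb at -0.41. Within prefix C3, 1 WT/E3A heart against 1 WT/WT heart differed by 0.01 for Fos, -0.74 for Fosb, -0.29 for Junb and 0.28 for Jund.

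Jund had a log2 fold change of 0.20 (SE 0.05) over 9 libraries in that comparison and did not pass (edgeR adjusted p = 0.539). It was the 1 member with an unadjusted p under 0.05, against 3.33% of all genes in the higher direction, and its groups did not overlap, against 6.35%. Over 13 libraries Jund had 0.13, and leaving out WT/E3A replicate 1 turned it to -0.43. Fosl2, Jun and Atf3 stayed between -0.11 and 0.29 in both fits. The member median was -0.11 over 13 libraries and 0.05 over 9.

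E3A/E3A against WT/E3A gave the largest values for Fos, Fosb and Junb, and 0 of 7 members were called by edgeR, DESeq2 or limma-voom in either fit. Calls made up 0.0% of all genes over 13 libraries and 0.0417% over 9 in edgeR. Over 13 libraries Fosb had a log2 fold change of 2.16 (SE 0.59), Fos 1.91 (SE 0.68), Junb 1.20 (SE 0.45) and Atf3 0.90 (SE 0.29), each with an edgeR adjusted p of 1. These 4 had an unadjusted p under 0.05, against 0.883% of all genes in the higher direction. Fosb was the member whose groups did not overlap over 13 libraries, against 0.507%.

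Over 9 libraries the same 4 genes had smaller values. Fosb had 1.73 (SE 0.73, edgeR adjusted p = 0.727), Fos 1.64 (SE 0.76, adjusted p = 0.752), Junb 0.92 (SE 0.34, adjusted p = 0.717) and Atf3 0.64 (SE 0.36, adjusted p = 0.791). Jund had 0.20 (SE 0.05, edgeR adjusted p = 0.456). At an unadjusted p under 0.05 the count was 2, Junb and Jund, against 4.04% of all genes in the higher direction. The E3A/E3A hearts lay above all WT/E3A hearts for 4 members, Fos, Fosb, Junb and Jund, against 5.82% of genes. Fosl2 (0.13) and Jun (-0.03) were near 0.

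Leaving out each heart in turn kept the sign of Fos, Fosb, Junb and Atf3 in E3A/E3A against WT/E3A. The values ran from 1.27 to 1.96 for Fos, 1.496 to 2.09 for Fosb, 0.71 to 1.12 for Junb and 0.41 to 0.88 for Atf3 over 9 libraries. Over 13 libraries Junb was at 0.62 without E3A/E3A replicate 1. The sign was also the same inside prefixes: within C3 Fosb differed by 1.69, Fos by 1.18, Atf3 by 1.17 and Junb by 0.68, with 2 E3A/E3A hearts and 1 WT/E3A heart. Within C4, with 1 E3A/E3A heart and 3 WT/E3A hearts of which 1 is noted, the differences were 1.73, 1.84, 0.69 and 0.79. Jund differed by 0.13 within C3 and by -0.22 within C4, where the noted heart is the one at 377.1 CPM.

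**Figure D2:**
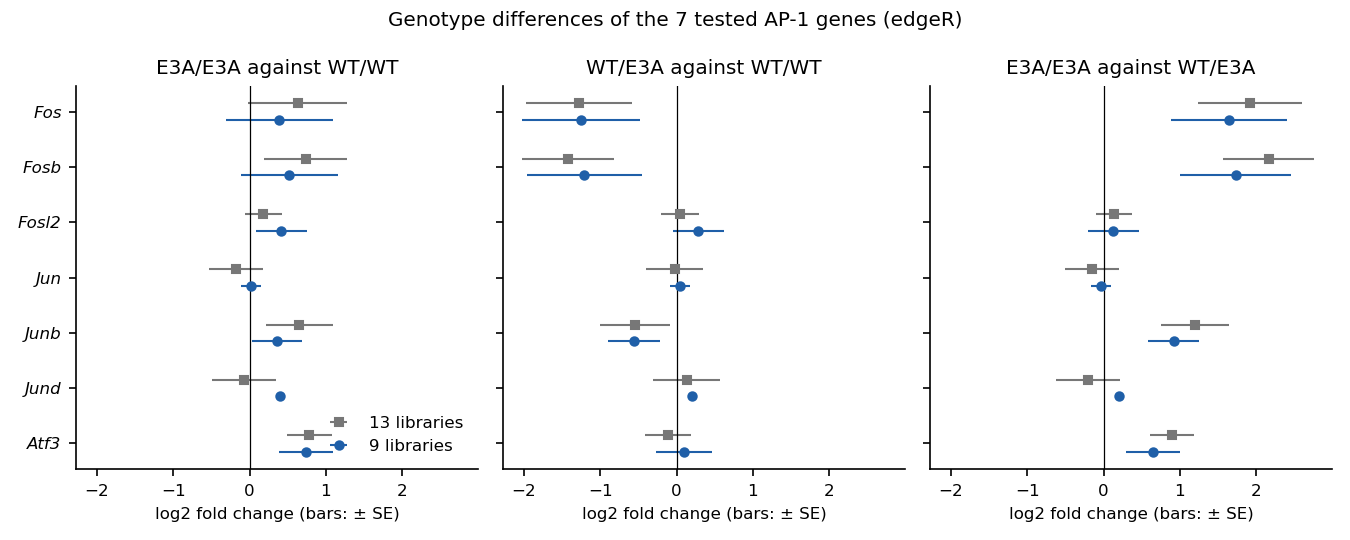
Log2 fold change of the 7 tested AP-1 genes in 3 genotype comparisons from edgeR, with bars of 1 standard error, for 13 libraries (squares) and 9 libraries (circles). Fos, Fosb and Junb lie left of 0 in WT/E3A against WT/WT and right of 0 in E3A/E3A against WT/E3A, with wide bars; those of Jund over 9 libraries (SE 0.05) are hidden by the symbols.

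The spread between hearts of 1 genotype differed among the members and with the libraries used. Over 9 libraries the SD of log2 CPM within genotype was 0.89 for Fos and 0.81 for Fosb, the 99.4th and 99.3th percentiles of all genes. Atf3 (0.46), Fosl2 (0.42) and Junb (0.41) were above the 94th percentile, and Jun (0.18) at the 72.2th. Jund had an SD of 0.058, below the median gene (0.108) and at the 16.3th percentile. Over 13 libraries the SD of Jund was 0.63, above the median gene (0.34) and at the 86.0th percentile, and that of Jun was 0.55, while Fos (1.07) and Fosb (0.84) were again the highest members.

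Fos, Fosb and Junb rose and fell together from heart to heart. Over 9 libraries and 21 pairs of tested members, 3 pairs passed an exact two-sided permutation test adjusted over the pairs. The test shuffled hearts without regard to genotype, and how many of all gene pairs would pass it was not computed. Fosb and Junb had r = 0.96 and rho = 0.95, Fos and Fosb r = 0.94 and rho = 0.93, and Fos and Junb r = 0.93 and rho = 0.90, each with an adjusted exact permutation p of 0.00218 for r. Without the 2 hearts farthest from the median of the first gene of each pair, r was 0.92, 0.87 and 0.83. After removing each genotype's mean, r was 0.91, 0.89 and 0.86, with adjusted permutation p of 0.00978, 0.0181 and 0.0233. That permutation ran over all 9 hearts, and centred values are not exchangeable between genotypes. Those p-values are therefore approximate and may be too small, so no conclusion is drawn from them.

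The remaining members did not follow this trio at a level the test could show. The next pair, Fosl2 and Jun, had r = 0.70 (adjusted exact permutation p = 0.182). Fos and Fosl2 had r = -0.37 and Fos and Jun r = -0.36 (adjusted exact permutation p = 0.555 and 0.555). Of the 21 pairs, 15 had a positive r, with a median of 0.31.

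**Figure D3:**
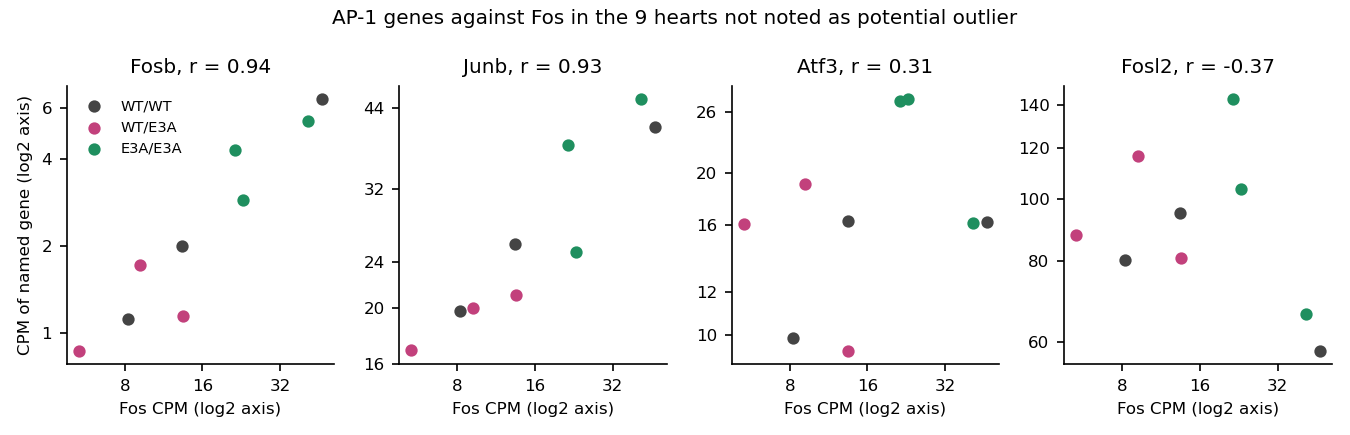
CPM of Fosb, Junb, Atf3 and Fosl2 against CPM of Fos in the 9 hearts without the note, on log2 axes, coloured by genotype. Fosb and Junb climb with Fos across all 3 genotypes (r = 0.94 and 0.93), and Atf3 (0.31) and Fosl2 (-0.37) do not.

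Among 12707 genes with a mean of at least 1 CPM, those most like Fos by Pearson r over the 9 libraries were Txndc12 (0.98), Spon2 (0.95), Fosb (0.94), Eif4e (0.94) and Avpr1a (0.94). Those most like Jund were Gsg1l (0.96), Gm10638 (0.94), Tfeb (0.93), Pdgfb (0.92) and Dact3 (0.92). These are the top ranks of a long list over 9 points that share their genotype groups, given as a description. Txndc12 ranked above Fosb although it ran only from 17.4 to 19.5 CPM, so a high r with Fos is not limited to AP-1 genes.

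The 4 noted libraries differed from the other 9 in Jund and Jun. The grounds of the note are not given in the sources used here, and it may itself rest on these expression values. The differences are therefore given as a description. With genotype in the model, Jund was 2.13-fold higher in the noted libraries (log2 1.09, SE 0.16) and Jun 1.96-fold (log2 0.97, SE 0.12), and for both all 4 noted hearts lay above all 9 others. All noted hearts were above the rest for 25.9% of all genes, and 37.0% of genes were called higher in them by edgeR, so the 2 Jun genes shared this with 3730 genes placed alike, themselves included. Junb differed by 0.83 (SE 0.30), Fosb by 0.57 (SE 0.46) and Atf3 by 0.47 (SE 0.20) on the log2 scale. Fosl2 (0.06, SE 0.20) and Fos (-0.42, SE 0.63) were not higher in the noted hearts beyond their errors.

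Jund has a transcript GC content of 67.1%, the highest of the members, and 24 other tested genes reach that content. Their median log2 difference in the noted libraries was 1.11, with 22 of 24 above 0, beside -0.02 and 48.9% above 0 for all genes. The summed cardiomyocyte, fibroblast and macrophage markers were higher in the noted libraries too, as given above. Transcript GC content was 62.6% for Junb, 56.0% for Fosb and 55.5% for Jun. The part of GC content and of cell makeup in the differences of Jund and Jun was not tested.

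**Figure D4:**
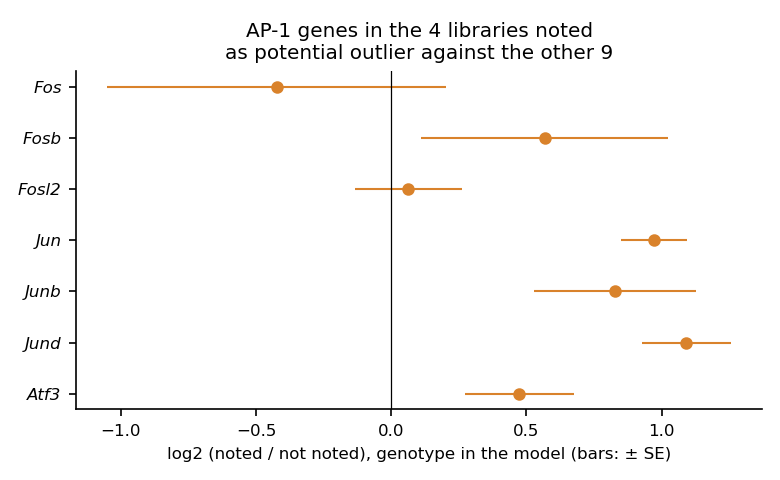
Log2 ratio of the 4 noted libraries over the other 9 for the 7 tested AP-1 genes, with genotype in the model and bars of 1 standard error. Jund (1.09) and Jun (0.97) lie farthest to the right, and the bar of Fos (-0.42) crosses 0.

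The genes around AP-1 were read from 4 lists. Of 12 tested relatives and partners of 13 listed, 0 were called by edgeR, DESeq2 or limma-voom in any of the 3 comparisons and either fit. At an unadjusted p under 0.05 in edgeR, 3 of them were higher and 0 lower in E3A/E3A against WT/WT over 9 libraries, where 1105 of 14373 genes passed that threshold in either direction. The most abundant were Mafk (70.9 CPM), a small Maf protein, Atf2 (35.0 CPM), a partner of Jun proteins, and Mafg (32.5 CPM). Their log2 fold changes in that comparison were 0.36 (SE 0.14), -0.07 (SE 0.06) and 0.10 (SE 0.07).

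Of 31 tested kinases and factors upstream of AP-1 (33 listed), 0 were called by these 3 tools in any comparison or fit. The count at an unadjusted p under 0.05 in edgeR was 1 higher and 1 lower in E3A/E3A against WT/WT over 9 libraries, beside the same 1105 of 14373 genes. Mef2a (250.1 CPM), Srf (160.1 CPM) and Mef2d (141.7 CPM), which bind the promoters of immediate early genes, had log2 fold changes of -0.09 (SE 0.05), 0.11 (SE 0.08) and 0.03 (SE 0.07) there. The list's median was -0.01, beside 0.00 for all genes.

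Of 29 tested other immediate early genes (30 listed), 0 were called by edgeR in any comparison. In E3A/E3A against WT/E3A over 9 libraries, 24 of 29 were above 0 with a median of 0.26, beside 0.00 for all genes, and 3 were higher and 1 lower at an unadjusted p under 0.05, beside 993 of 14373 genes in either direction. For E3A/E3A against WT/WT, 26 of 29 were above 0 over 9 libraries (median 0.33) and 24 of 29 over 13 (median 0.30). For WT/E3A against WT/WT, 19 were above 0 and 10 below over 9 libraries (median 0.12). Over 13 libraries that comparison had 18 above and 11 below (median 0.07). The most abundant, Rhob (306.7 CPM), a small GTPase, Nr4a1 (180.0 CPM), an orphan nuclear receptor, and Dusp1 (141.3 CPM), a phosphatase of MAP kinases, had 0.02 (SE 0.09), 0.50 (SE 0.32) and 0.37 (SE 0.17) in E3A/E3A against WT/E3A over 9 libraries.

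The tools disagreed on a pair of these genes, named here after their values were seen. Nr4a2, another orphan nuclear receptor, had a log2 fold change of 1.77 in E3A/E3A against WT/E3A over 9 libraries with an adjusted p of 0.163 in edgeR and of 9.76e-10 in DESeq2. In that comparison and fit limma-voom called no gene of the list. Over 13 libraries it had 1.98 with an adjusted p of 0.693 in edgeR, 1.57e-05 in DESeq2 and 0.00821 in limma-voom. Ier3 fell by 0.59 on the log2 scale in E3A/E3A against WT/E3A in DESeq2 over 9 libraries (adjusted p = 0.0139) and did not pass in edgeR (adjusted p = 0.456). DESeq2 and limma-voom also called Nr4a2 higher in E3A/E3A against WT/WT in both fits. DESeq2 called Ier3 higher in WT/E3A against WT/WT over 9 libraries (adjusted p = 0.0453), where edgeR (adjusted p = 0.585) and limma-voom did not.

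Egr1, a zinc finger factor of the same early wave, was also singled out after its values were seen. It averaged 65.0 CPM (SD 71.0, n = 3) in WT/WT, 27.7 CPM (SD 8.21, n = 3) for WT/E3A, and its E3A/E3A mean was 102 CPM (SD 69.1, n = 3), over the 9 libraries. Its log2 fold change in E3A/E3A against WT/E3A was 1.90 (SE 0.94, edgeR adjusted p = 0.757). The order of the means was that of Fos, and the E3A/E3A and WT/WT hearts overlapped. Unlike Egr1, the list of other immediate early genes had a median above 0 in WT/E3A against WT/WT, as given above.

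Of 24 tested textbook AP-1 targets (25 listed), 0 were called by edgeR or DESeq2 in any comparison. In E3A/E3A against WT/E3A over 9 libraries 15 were above 0 and 9 below, with a median of 0.08 (all genes, 0.00), and 2 were higher and 0 lower at an unadjusted p under 0.05, beside 993 of 14373 genes in either direction. Gja1 (730.4 CPM), the gap junction protein connexin, Vegfa (642.5 CPM), an angiogenic factor, and Dcn (351.7 CPM), a matrix proteoglycan, had log2 fold changes of 0.21 (SE 0.12), -0.10 (SE 0.10) and 0.08 (SE 0.06). Lgals3, the lectin galectin, was called by limma-voom with quality weights alone, in E3A/E3A against WT/WT over 13 libraries.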

How the data were processed

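The authors deposited raw counts of reads by gene symbol in 13 files. Per the submitters' processing notes, the authors used STAR 2.4.0 and featureCounts 1.4.4 on mm10. Groups came from the labels, 1 library per heart. Here counts were tested with edgeR 4.0.16 under R 4.3.3 (low counts removed with filterByExpr on the genotypes, TMM, robust quasi-likelihood F test, Benjamini-Hochberg over all genes, threshold 0.05), over 13 libraries and over the 9 not noted as potential outlier. DESeq2 1.42.0, limma-voom (limma 3.58.1) with quality weights, other size factors, no filter, the prefix block, the note as a term and leaving out each heart were alternatives. CPM are TMM-scaled, and log2 CPM for correlations had 0.1 CPM added. The test code was tested on simulated data. Replicate numbers follow accession order and pair nothing. All 8 members were named, with the 5 genes most like Fos and Jund and, from each list, the genes called or otherwise the 3 highest in CPM. The members and lists were chosen with earlier results of these data known. Errors cover the spread between hearts and counting alone, because PCR copies of a molecule were not marked.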

Additional observations from a re-analysis of the deposited data

Results flagged for a closer look

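In groups of 4 or 5 hearts, a heart was set apart when its gap to the nearest other, over the group's range, passed Dixon's 95% critical value. Of 24 groups examined (8 genes in 3 genotypes), 3 had such a heart, and chance flags about 1 in 20 groups. Jund was at 360.8 CPM in WT/WT replicate 1 and at 377.1 CPM in WT/E3A replicate 1, each far above the other hearts of its genotype. Jun was at 201.1 CPM in WT/E3A replicate 1. These 2 libraries are noted as potential outlier in the labels.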

How the results depend on the processing

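The count of AP-1 genes called stayed at its value under every alternative run except 1: in E3A/E3A against WT/WT over 9 libraries it went from 1 to 0 with the title prefix as a block, and the cause was not tested. The 3 covarying pairs were 3 under every alternative, though the p-values after removing genotype means are approximate, as stated above. No value that changed sign was a call. In WT/E3A against WT/WT with the prefix block, Fosl2 was at -0.53 (13 libraries) and -0.38 (9), Jund at -0.0735 (13), Jun at -0.25 (9) and Atf3 at -0.56 (9) on the log2 scale. With limma-voom quality weights over 13 libraries, Jun was at 0.12 and Atf3 at 0.22 in that comparison, and Jun was at 0.00039 and Jund at 0.23 in E3A/E3A against WT/E3A. With the note as a term, Jun was at 0.00014 in WT/E3A against WT/WT.

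Leaving out 1 heart in turn, WT/E3A against WT/WT over 13 libraries ran from -0.29 to 0.0933 for Atf3, -0.11 to 0.23 for Fosl2, -0.42 to 0.44 for Jun and -0.43 to 0.75 for Jund. Over 9 libraries it ran from -0.14 to 0.33 for Atf3 and -0.0435 to 0.21 for Jun. E3A/E3A against WT/E3A ran from -0.0313 to 0.27 for Fosl2, -0.31 to 0.24 for Jun and -0.35 to 0.35 for Jund over 13 libraries, and from -0.17 to 0.38 for Fosl2 and -0.0947 to 0.0522 for Jun over 9.

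Sign thus has little meaning for Fosl2, Jun and, with 13 libraries, Jund in comparisons with WT/E3A, nor for Atf3 in WT/E3A against WT/WT. In E3A/E3A against WT/WT over 13 libraries, leaving out 1 heart gave -0.35 to 0.29 for Jun and -0.25 to 0.55 for Jund. With limma-voom quality weights Jun was at 0.12 and Jund at 0.42 there. The sign of both has little meaning in that fit as well. No paired analysis was possible because the labels give no replicate numbers that the genotypes share. The 3 hearts per genotype without the note limit the precision, and Fosl1 is too low to compare at this depth.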
